A study of Mus musculus with 2 samples.

Results

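Effector-like regulatory T cells of the lymph node were taken as the 106 cells with the highest share of their transcripts from 7 genes, out of 2119 lymph node cells that passed the filters. The 7 genes were Ccl5, Prdm1, Klrg1, Itgae, Id2, Gzmb and Tnfrsf9. Transcripts were counted by unique molecular identifiers (UMIs), and the 106 cells are the top 5% by UMIs of these genes divided by all UMIs of the cell. They were compared with the 1415 cells of the same filtered set that held 0 UMIs of the 7 genes, called comparison cells below. Another 598 cells held UMIs of the 7 genes without reaching the top 5%. With the 774 tumour cells that passed the same filters, both libraries together held 2893 cells.

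The study profiled sorted cells from Foxp3Cre-YFP mice of strain C57BL/6, aged 5-8 weeks, by 10x Chromium 3' single-cell RNA sequencing. Foxp3 encodes the transcription factor that defines regulatory T (Treg) cells, and in these mice its locus expresses Cre with a yellow fluorescent reporter. One library came from unchallenged lymph node and 1 from B16 melanoma on day 14 of growth. The labels name neither the sort gate nor the number of mice, and with 1 library per tissue no comparison has a replicate check, so no p-value is given.

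Treg cells restrain other lymphocytes and exist in resting and effector states. Resting, or central, Treg cells keep the receptors that bring T cells into lymph nodes and let them leave again, among them CCR7 and S1PR1. Effector Treg cells have met antigen, lose much of this circulation programme, and take up receptors for inflamed or barrier tissue together with costimulatory and inhibitory receptors. Of the genes used for selection, Prdm1 encodes BLIMP-1, a transcription factor of effector lymphocytes, and Id2 an inhibitor of E-protein transcription factors. Itgae encodes CD103, the integrin chain that binds E-cadherin, and Klrg1 a lectin-like receptor of differentiated lymphocytes. Ccl5 encodes a chemokine, Gzmb the protease granzyme B, and Tnfrsf9 the costimulatory receptor 4-1BB.

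The lymph node library held 14000036 UMIs and the tumour library 23618037. The 106 members held 464161 UMIs, with 1839 to 18527 per cell and a median of 3672.5, and the 1415 comparison cells held 5768668, with a median of 3828. Filters left out 9 lymph node barcodes with at least 2 UMIs of the B cell genes Cd79a and Ms4a1, and 85 with at least 2 UMIs of 5 cell-cycle genes. The filtered sets of both libraries shared 1 barcode, which was not that of a member. Levels are given as CPM, the summed UMIs of a gene scaled to the summed UMIs of a group, and are not divided by gene length, so they compare groups and not genes. Intervals in parentheses are exact 95% intervals for counting error only. They treat UMIs as independent and do not cover the spread between cells or mice.

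The selection genes were spread unevenly over the members, and no single gene marked them all. Members held 2 to 133 UMIs of the 7 genes, with a median of 7, and the score ran up to 154 per 10000 UMIs around a median of 16.52. Of the 106 members, 23 held UMIs of only 1 of the 7 genes, 33 of 2 and 50 of at least 3, and none held all 7. The last 5 members inside the threshold scored 10.8 to 10.91 per 10000 from 2 to 8 UMIs, and the 5 cells just outside scored 10.16 to 10.71 from 2 to 9 UMIs. The scores are continuous across the threshold, so the members are a range and not a separate class.

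Because these genes chose the members, their levels are a description. Tnfrsf9 had a UMI in 71 members and stood at 633.4 CPM, Itgae in 56 members at 252.1 CPM, Id2 in 52 members at 355.5 CPM and Ccl5 in 46 members at 814.4 CPM. Klrg1 was found in 19 members at 101.3 CPM, Prdm1 in 14 members at 34.47 CPM and Gzmb in 11 members at 60.32 CPM. One cell held 126 of the 378 Ccl5 UMIs. In RNA outside cells, read from the 150008 lymph node barcodes with 1 to 100 UMIs, Tnfrsf9 stood at 92.14 CPM, Id2 at 66.98 CPM and Ccl5 at 53.29 CPM, and none of the 9 B cell barcodes (median 3309 UMIs) held a UMI of any of the 7 genes, which allows a share of up to 33.3%.

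**Figure D1:**
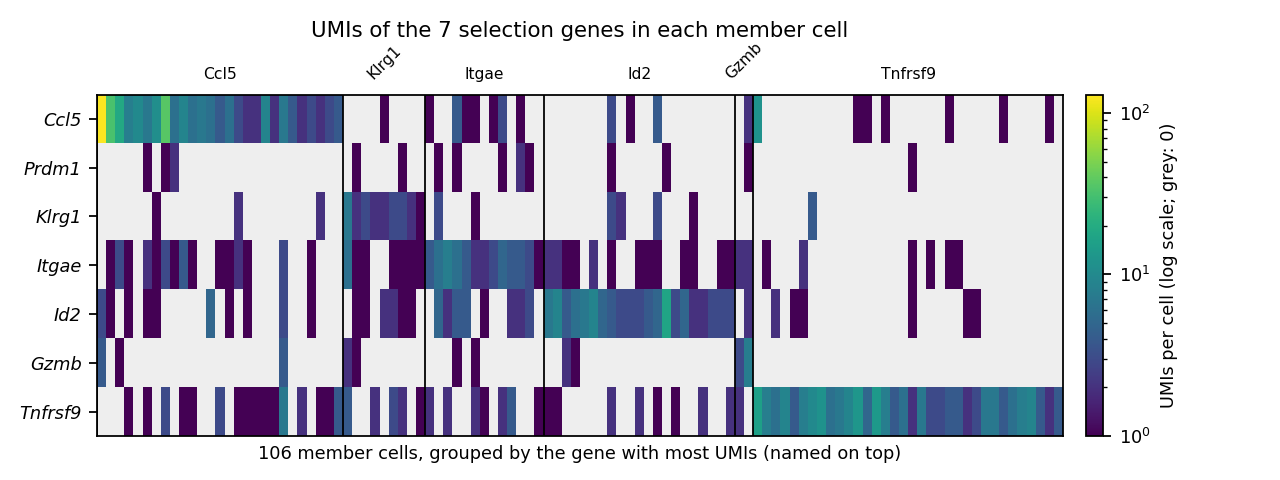
UMIs of the 7 selection genes (rows) in each of the 106 members (columns), on a log colour scale with grey for 0, grouped by the gene with most UMIs in the cell. Cells led by Tnfrsf9 (34) hold few UMIs of the other genes, whereas Itgae and Id2 occur across the groups led by other genes.

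Within the members, Itgae was shared most widely with the rarer genes. The same genes chose the members, so the overlaps depend on the selection and are a description. Of the 14 members with a Prdm1 UMI, 13 also held Itgae, and of the 11 with Gzmb, 10 held Itgae. Itgae and Id2 occurred together in 37 cells, which is 66.07% of the cells with Itgae and 71.15% of those with Id2. By the gene with most UMIs, 34 members were led by Tnfrsf9, 27 by Ccl5, 21 by Id2, 13 by Itgae, 9 by Klrg1, 2 by Gzmb and none by Prdm1, with 14 ties. A tie went to the gene that comes first in the order Ccl5, Prdm1, Klrg1, Itgae, Id2, Gzmb, Tnfrsf9, so none went to Tnfrsf9.

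Each gene was then measured in cells ranked without it, so that its own count did not select the cells. The top 5% by the 6 other genes was set against lymph node cells with 0 UMIs of those 6. All 7 genes were higher in the top cells. Gzmb was 87.3-fold higher (30.5 to 343), with 28 UMIs in the top cells against 4 in the others. Klrg1 was 27.0-fold higher (13.5 to 56.7), Ccl5 20.7-fold (15.3 to 28.3), Itgae 11.9-fold (8.73 to 16.2), Prdm1 8.06-fold (3.57 to 17.5) and Id2 6.69-fold (5.06 to 8.78). Tnfrsf9 had the lowest ratio, 2.903-fold (2.285 to 3.653). It stood at 184.1 CPM in the top cells and still at 63.43 CPM in cells with none of the other 6.

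Against the comparison cells, the members had high levels of effector Treg genes, of S100 calcium-binding proteins and of costimulatory receptors, and low levels of the circulation and quiescence genes of resting T cells. Of 4251 genes with at least 200 UMIs over the lymph node set, 324 were at least 2-fold higher in members (7.62%) and 77 at least 2-fold lower (1.81%). The selection genes and the genes used by the filters were left out. The minimum counted the members' own UMIs, so a gene high in members could reach it through them. How many of the 324 did so is not given here. The median gene was 0.31 higher on the log2 scale, so changes are read against that shift. Ribosomal protein genes made up 31.3% of UMIs in members and 44.2% in comparison cells, and on totals without them 157 genes were higher and 157 lower. Scaling by TMM gave 122 higher and 231 lower, and scaling by the median of ratios 125 higher and 224 lower. The counts in each direction thus depend on the scaling.

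The low ribosomal share was seen in nearly every member. Per cell it was 10.5% to 44.3% in members with a median of 30.0%, against a median of 43.7% in comparison cells, and 105 of 106 members lay below that median. Of 95 ribosomal protein genes counted, 92 had a lower level in members than in comparison cells, and the median ratio was 0.709, while none was 2-fold lower. Members held more genes per cell than comparison cells, with medians of 884.5 and 740 after every cell was thinned to 1811 UMIs. Mitochondrial UMIs made up a median of 2.84% in members and 2.62% in comparison cells.

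**Figure D2:**
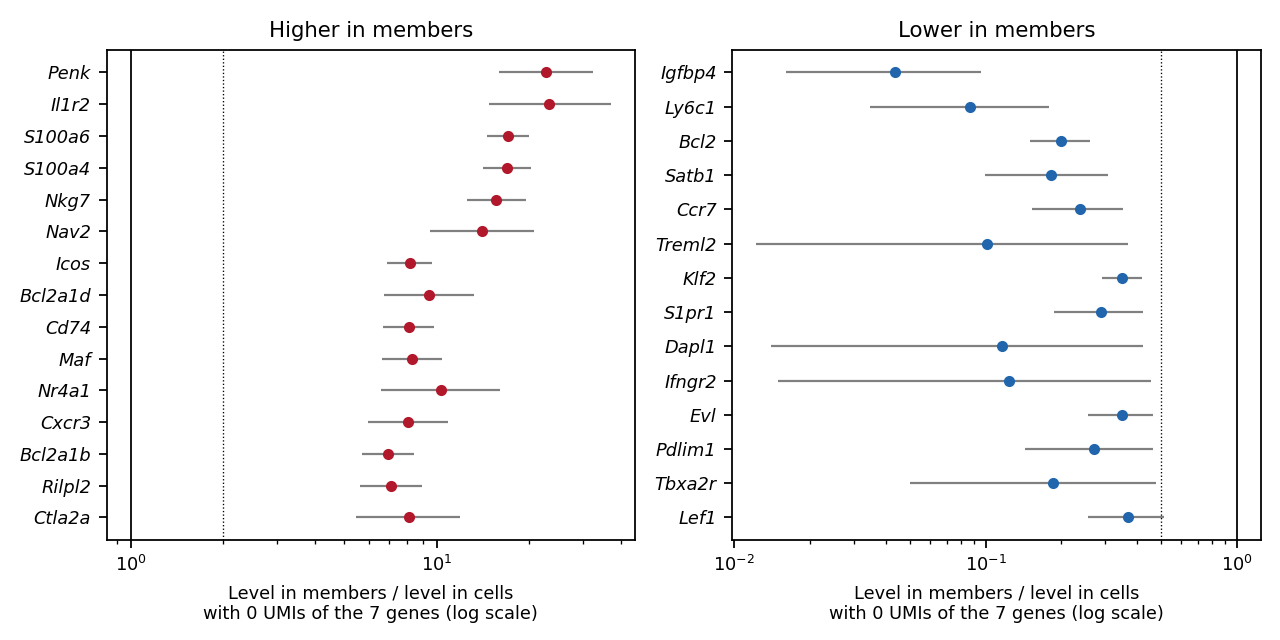
Ratio of the level in members to the level in comparison cells for genes of the top 15 each way by interval bound, on a log axis. Points are ratios of CPM, bars exact 95% intervals for counting error, and dotted lines the 2-fold limits; Penk and Il1r2 are over 20-fold higher and Igfbp4 is at 0.0438 of its level in comparison cells.

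The counted genes of effector Treg cells were higher in the members summed together. All 12 counted genes of an effector Treg list were at least 2-fold higher, with a median log2 ratio of 2.60 against 0.31 over all genes. The list holds 30 genes, and 18 were not counted. A gene was not counted if below the 200-UMI minimum or used in the selection or the filters. One of the 12 reached the minimum only with the members' own UMIs. On totals without ribosomal protein genes 11 of the 12 remained past 2-fold, and 11 under TMM scaling. Icos, a costimulatory receptor, had a UMI in 70 of 106 members and 249 of 1415 comparison cells, and was 8.18-fold higher (6.88 to 9.70). Maf, a transcription factor of IL-10-producing T cells, was found in 55 members and 131 comparison cells and was 8.31-fold higher (6.62 to 10.4). Of the 9 B cell barcodes 0 held Icos and 1 held Maf. Both were spread over members, the fullest member holding 4.85% of the Icos UMIs and 6.02% of the Maf UMIs.

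Rora, a nuclear receptor of tissue Treg cells, was 5.39-fold higher (3.77 to 7.60), and Batf, a transcription factor of tissue Treg cells, 3.81-fold higher (2.96 to 4.86). Pdcd1, which encodes the inhibitory receptor PD-1, was 5.28-fold higher (3.77 to 7.32), and Tnfrsf1b, which encodes TNF receptor 2, 6.86-fold (5.20 to 8.997). Among genes past the 200-UMI minimum, the pair with the largest ratios was carried by few cells. Penk, which encodes the opioid precursor proenkephalin, had UMIs in 18 members and 23 comparison cells, at 204.7 CPM and 9.01 CPM (22.71-fold, 16.03 to 32.48). Il1r2, the decoy receptor for interleukin-1, was in 14 members, 1 of which held 32.8% of its UMIs, and was 23.3-fold higher (14.8 to 37.2). Il1r2 reached the 200-UMI minimum only with the members' own UMIs, so its place among the ranked genes rests partly on them. Thus a minority of members accounted for both genes.

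Cytokine genes tied to suppression were thinly counted. Il10 had 4 UMIs in 3 members and 1 UMI in the comparison cells. Ebi3, a subunit of interleukin-35, had 16 UMIs in 14 members and was 3.21-fold higher (1.73 to 5.63). Ebi3 stood at 34.5 CPM in members and 95.5 CPM in tumour cells.

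The named Treg identity genes were mostly at or above their level in comparison cells, with Gpr83 and Lrrc32 below it. The identity list had 17 genes past the minimum, of which 7 were 2-fold or more above the comparison level, 1 was below it by as much and 9 lay between, with a median log2 ratio of 0.83. Without the members' own UMIs 16 of the 17 reached the minimum. Under TMM scaling the count was 5 higher and 2 lower with a median of 0.40. Ikzf2, which encodes the transcription factor Helios, was found in 101 of 106 members and 906 of 1415 comparison cells. Its per-cell level ran up to 71.9 per 10000 UMIs in members, with a median of 15.8, against up to 60.0 with a median of 3.11 in comparison cells. The ranges overlapped, and the ratio of summed levels was 3.44 (3.18 to 3.72). After thinning, 87.7% of members and 49.3% of comparison cells held a UMI of Ikzf2.

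Foxp3 itself was counted sparsely at the 3' end, with 20 UMIs in 19 members, and was 2.09-fold higher (1.23 to 3.37). Its ratio fell below 2 under TMM scaling (log2 ratio 0.64) and with the top 10% as members (0.68), among other settings. Against cells matched on total UMIs Foxp3 was 3.31-fold higher. Il2ra, which encodes the high-affinity interleukin-2 receptor chain CD25, was not separated, at 187.4 CPM in members and 160.7 CPM in comparison cells (1.17-fold, 0.925 to 1.45), and its ratio was below 1 under 7 of 14 other settings, among them TMM scaling. Ctla4, the inhibitory receptor by which Treg cells take B7 ligands from antigen-presenting cells, was 4.35-fold higher (3.56 to 5.28), and 1 member held 18.4% of its UMIs. The TNF receptor genes Tnfrsf4, encoding OX40, and Tnfrsf18, encoding GITR, were 4.58-fold (4.14 to 5.07) and 2.56-fold higher (2.26 to 2.89). Tnfrsf18 was below 2-fold under TMM scaling (log2 ratio 0.93) and under median-of-ratios scaling (0.94). Gpr83, an orphan receptor of Treg cells named after its value was seen because it was the 1 lower gene of the list, stood at 21.5 CPM in members and 71.9 CPM in comparison cells (ratio 0.299, 0.142 to 0.556). Lrrc32, which encodes the TGF-beta docking receptor GARP and is also named after its value was seen, stood at 30.2 CPM in members and 50.4 CPM in comparison cells (ratio 0.598, 0.323 to 1.02) and was past 2-fold on totals without ribosomal protein genes.

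Resting T cell genes were low in the members. Of the 22 counted genes of this list 12 were at least 2-fold lower, none was 2-fold higher and 10 lay between, with a median log2 ratio of -1.37, and 16 of 22 were lower on totals without ribosomal protein genes. Igfbp4, a secreted binding protein of insulin-like growth factors found in naive-like T cells, had 6 UMIs in 4 members and stood at 12.9 CPM, against 295 CPM in comparison cells (ratio 0.0438, 0.0161 to 0.0956). Ly6c1, a surface antigen of central Treg cells, had 7 UMIs in 7 members (ratio 0.0867, 0.0348 to 0.179). Bcl2, a survival factor, was found in 32 of 106 members and 1015 of 1415 comparison cells, with a ratio of 0.200 (0.150 to 0.260). Related genes had the opposite direction, Bcl2a1b at 6.94-fold higher (5.71 to 8.42) and Bcl2a1d at 9.47-fold higher (6.73 to 13.3). These Bcl2a1 copies are near-identical, and how the counting divided reads between them is uncertain.

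Of 6 counted genes of a list of chemokine receptors and egress genes, 3 were at least 2-fold lower, among them Ccr7 and S1pr1, and 1 was higher, Cxcr3. Ccr7 had a UMI in 18 of 106 members and 749 of 1415 comparison cells (ratio 0.237, 0.153 to 0.352). Of the 9 B cell barcodes, a cell type that also uses this receptor, 3 held Ccr7. S1pr1, the receptor for the egress signal sphingosine-1-phosphate, was at 0.288 of its level in comparison cells (0.188 to 0.425). Klf2, a transcription factor that drives S1pr1 in T cells, was found in 45 members and 1124 comparison cells (ratio 0.350, 0.290 to 0.418). The transcription factor genes Tcf7, Lef1 and Satb1 were at 0.381 (0.259 to 0.542), 0.367 (0.255 to 0.514) and 0.182 (0.0991 to 0.307) of their comparison level. Id3, another gene of resting T cells, was not separated at 0.924 (0.755 to 1.12), and was 0.548 with the top 2.5% taken as members. In GRCm38 Igfbp4 lies on chromosome 11, 99041244 to 99054392, plus strand, and Ccr7 on chromosome 11, 99144196 to 99155077, minus strand.

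Cxcr3, the receptor for interferon-induced chemokines, had UMIs in 36 members and was 8.07-fold higher (5.97 to 10.9). Cxcr6 and Ccr2, receptors of tissue T cells, did not reach the 200-UMI minimum and are named after their values were seen. Cxcr6 had 80 UMIs in 30 members and stood at 172 CPM, against 2.77 CPM in comparison cells (62.1-fold, 36.0 to 114). Ccr2 had 41 UMIs in 17 members, at 88.3 CPM against 2.60 CPM (33.97-fold, 18.41 to 66.07). Among integrin and adhesion genes, Cd44 was 3.46-fold higher (2.39 to 4.89) and Itgb1, the shared beta-1 chain, 3.27-fold higher (2.58 to 4.11). Of the 10 genes of this list counted, 2 were higher and 2 lower.

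**Figure D3:**
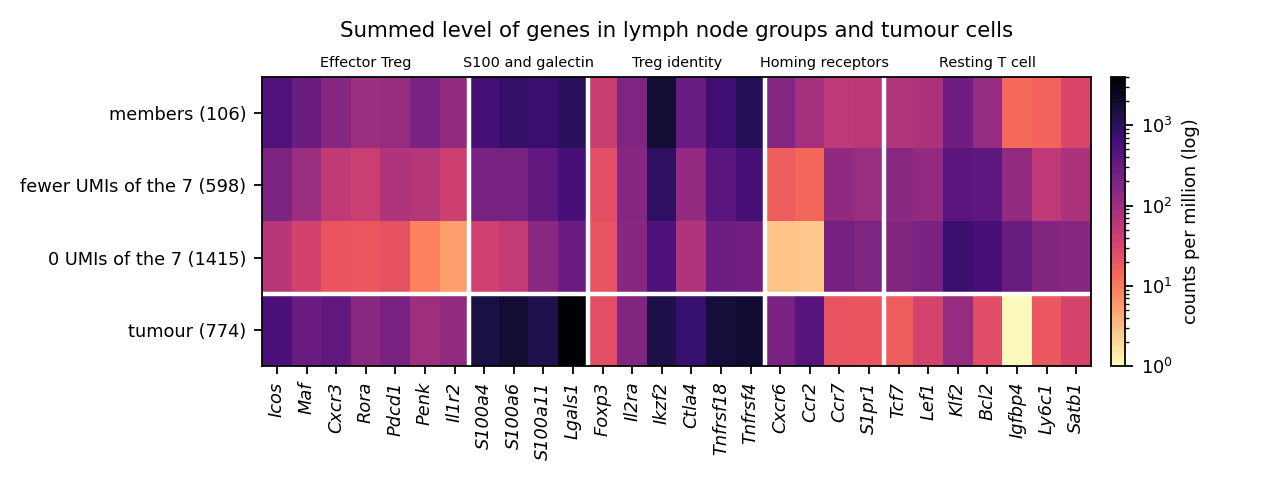
Summed level in CPM (log colour scale) of genes grouped by role, in the 106 members, the 598 lymph node cells with a lower share of the 7 genes (row marked fewer UMIs), the 1415 with 0 UMIs of them and the 774 tumour cells. Effector and S100 genes are darker and resting genes lighter in members than in cells with 0 UMIs, and the row of 598 cells lies between for these groups.

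The S100, annexin, galectin and cytoskeleton list had 8 of 17 counted genes at least 2-fold higher and none lower, also on totals without ribosomal protein genes and under TMM scaling. S100a6 had a UMI in 61 of 106 members and 144 of 1415 comparison cells and was 17.1-fold higher (14.7 to 20.1). S100a4, a regulator of cell motility, had one in 52 members and 82 comparison cells and was 17.0-fold higher (14.2 to 20.3). Against cells matched on total UMIs S100a4 was 5.92-fold and S100a6 31.9-fold higher, and against all other cells of the set 6.21-fold and 7.60-fold. After thinning to 1811 UMIs, 41.5% of members and 4.45% of comparison cells held a UMI of S100a4. Free RNA held S100a4 at 248.7 CPM, above the 37.1 CPM of comparison cells and below the 629 CPM of members, and 0 of the 9 B cell barcodes had a UMI of S100a4 and 1 had one of S100a6. S100a11 was 5.31-fold (4.69 to 6.01) and Lgals1, which encodes galectin-1, 3.72-fold higher (3.35 to 4.12). In GRCm38 S100a4 (chromosome 3, 90603771 to 90606045) and S100a6 (chromosome 3, 90612882 to 90624181) both lie on the plus strand.

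Genes of antigen receptor signalling were partly high. Of 12 counted genes of that list, 6 were at least 2-fold higher and none lower, with a median log2 ratio of 0.94. Nr4a1, an early response gene of the antigen receptor, was 10.3-fold higher (6.57 to 16.1) but had UMIs in only 11 members, 1 of which held 28.2%. Nr4a1 reached the minimum only with the members' own UMIs. Cd83, an activation antigen, was more widespread, with UMIs in 39 members (6.58-fold, 5.03 to 8.56). Tbc1d4, a regulator of glucose transporter traffic used as a marker of antigen-engaged Treg cells, was 3.307-fold higher (2.58 to 4.2). Of 13 early response genes that also follow tissue dissociation, 2 were higher and 2 lower, with a median of 0.33 near that of all genes, and Junb was 2.38-fold higher (2.01 to 2.80).

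Of 19 interferon-stimulated genes counted only Ly6a was 2-fold higher (2.73-fold, 2.40 to 3.10), and the list median of 0.15 lay below that of all genes. Of 12 glycolysis genes, 3 were higher, and on totals without ribosomal protein genes none was. Without the members' own UMIs 11 of the 12 reached the minimum. TGF-beta signalling had 3 of 8 higher, among them Tgfbr1, its type I receptor, at 2.60-fold (1.92 to 3.48). The list median of 0.29 lay below that of all genes. On totals without ribosomal protein genes 2 of the 8 were higher and 1 lower. Of 17 genes of a list of interleukin-2, common gamma chain and other cytokine receptor genes 1 was higher, Il18r1, which encodes an interleukin-18 receptor chain of the interleukin-1 receptor family, at 5.21-fold (3.65 to 7.33), and 2 were lower. Those were Il4ra, the interleukin-4 receptor chain, with 8 UMIs and a ratio of 0.285 (0.122 to 0.568), and Socs3, a feedback inhibitor of cytokine signalling, with 6 UMIs and a ratio of 0.316 (0.115 to 0.698). None of 8 GIMAP genes was past 2-fold. The transcription factor list had 9 of 22 higher and none lower. Inhibitory and costimulatory receptors had 5 of 11 higher and none lower. The TNF receptor superfamily had 3 of 7, granule genes 3 of 6, and survival genes 4 of 15 higher and 1 lower. On totals without ribosomal protein genes 7 transcription factor genes and 3 inhibitory and costimulatory receptor genes were higher. So were 3 TNF receptor, 2 granule and 3 survival genes, with 1 survival gene lower.

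The genes ranked in the top 15 each way also held some outside these groups. Among the higher genes, Nkg7, a granule protein of cytotoxic lymphocytes, was in 27 members (15.7-fold, 12.6 to 19.5), and Nav2, a gene of neuronal guidance, in 31 (14.1-fold, 9.55 to 20.9). Cd74, the class II invariant chain, was in 56 members and 159 comparison cells (8.11-fold, 6.70 to 9.80). Rilpl2 was 7.11-fold (5.60 to 8.99) and Ctla2a, a cathepsin inhibitor-like gene, 8.10-fold higher (5.44 to 12.0). Among the lower genes were Evl, an actin regulator (0.348, 0.255 to 0.465), and Pdlim1 (0.270, 0.143 to 0.466), and for Treml2, Dapl1, Ifngr2 and Tbxa2r only 2 to 4 UMIs remained in the members. The 598 cells with a lower share of the 7 genes lay between members and comparison cells for all 15 of the higher and all 15 of the lower genes. The genes were ranked on the difference between members and comparison cells, so this order is a description.

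Sizes of the ratios depended on the cells compared. Of the named genes 44 were followed through other settings, and none of these past 2-fold changed direction. Other named genes, among them Batf, Gpr83 and Ebi3, were not among the 44. Against all other cells of the set, which include the 598, 21 of 44 named genes moved by over 1.5 times, by 1.53 to 3.19 times, and each of the 21 was nearer to 1. Penk was then 7.12-fold, Il1r2 7.33-fold, Nkg7 5.46-fold, Cxcr6 22.1-fold and Icos 4.44-fold higher. Against cells matched on total UMIs 14 moved so, with Penk at 94.3-fold, Il1r2 at 57.6-fold, Cd74 at 16.6-fold, Pdcd1 at 10.7-fold and Cxcr3 at 4.44-fold. Without the members led by Tnfrsf9, Irf8 was 2.195-fold, Nr4a1 6.18-fold and Tbc1d4 2.05-fold higher than in comparison cells, and Bcl2 was at 0.1145 of their level.

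Most markers of other cell types were near absent in the members, with exceptions given below. Whether the UMIs of these exceptions came from the members themselves was not tested. Cd8a had 0 UMIs in members, comparison cells and tumour cells, and Cd4 stood at 163.7 CPM in members and 109.2 CPM in comparison cells. NK and innate lymphoid markers summed to 25.9 CPM (13.4 to 45.2) in members and 3.99 CPM (2.53 to 5.98) in comparison cells, with Ncr1, Klre1, Tyrobp, Fcer1g, Eomes and Gzma at 0 in the members. In members 9 of the 12 UMIs came from Il1rl1, which encodes the interleukin-33 receptor that effector Treg cells carry. B cell markers summed to 28.0 CPM in members and 17.0 CPM in comparison cells, with Pax5 and Cd22 at 0. Macrophage markers summed to 467 CPM in members and 318 CPM in comparison cells, nearly all from Ctss, with 9 of the 12 at 0.

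Dendritic cell markers summed to 405 CPM in members and 49.9 CPM in comparison cells through Cd74, with 10 of 13 at 0, among them Flt3, Zbtb46 and Itgax. A list of 7 MHC class II genes summed to 463 CPM in members and 98.8 CPM in comparison cells. At least 2 UMIs of that list were found in 35.85% of members and 7.56% of comparison cells. Plasma cell markers stood at 96.9 CPM in members and 55.1 CPM in comparison cells through Xbp1, with Sdc1 and Mzb1 at 0, and CD8 T cell markers at 25.9 CPM in members and 17.3 CPM in comparison cells through Cd8b1. Stroma and endothelium markers were at 30.2 CPM in members and 84.6 CPM in comparison cells through Pecam1. Neutrophil and mast cell markers held 2 UMIs in the members, and gamma-delta T cell, erythroid and B16 markers 0 each, for which 3 counts, the limit used for a count of 0, would be 6.46 CPM. Without the 2 members and 8 comparison cells with at least 2 UMIs of such markers, 326 genes were higher and 84 lower. Doublets were not removed, and 5 members (4.72%) and 35 comparison cells (2.47%) exceeded 2 times the median UMIs of the set.

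The members were not uniform, and they were divided into the 72 led by another gene than Tnfrsf9 and the 34 led by Tnfrsf9. Members in which Tnfrsf9 tied with another gene are in the 72. The 5 label markers Ccl5, Klrg1, Itgae, Id2 and Prdm1 summed to 2159 CPM in the 72 and to 253 CPM in the 34, so for the members led by Tnfrsf9 the data go against the name effector-like as these markers define it. This follows from the split and is a description. Both had like depth, with a median of 3621.5 UMIs in the 72 and 3857 in the 34. Of the 4251 genes 592 were at least 2-fold higher in the 72 (13.9%) and 382 at least 2-fold lower (8.99%), shares that a sum over 146400 UMIs in the 34 makes coarse. Genes named for this split, other than those already given, were chosen after their values were seen.

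The S100 group was higher in members led by another gene than Tnfrsf9. Of 17 genes of its list counted, 11 were at least 2-fold higher in the 72 and none lower, with a median log2 ratio of 1.19 against 0.05 over all genes. S100a4 stood at 903 CPM in the 72, with UMIs in 50 cells, and at 34.1 CPM in the 34, with 5 UMIs in 2 cells (26.4-fold, 11.2 to 82.1). The comparison cells had 37.1 CPM, and 287 of the 292 S100a4 UMIs of the members lay in the 72. S100a6 was 8.43-fold (5.38 to 14.0), the LIM-domain gene Crip1 3.76-fold (2.80 to 5.15) and the intermediate filament gene Vim 3.31-fold higher (2.37 to 4.73). Across the 72 S100a4 stood at 737 CPM in cells led by Ccl5, 1114 by Id2, 943 by Itgae and 961 by Klrg1 or Gzmb.

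Effector Treg genes were divided, with 4 of 12 counted at least 2-fold higher in the 72, 1 lower and 7 between, and of 6 chemokine receptor and egress genes 2 were higher and none lower. Ctla4 stood at 419 CPM in the 72 and 54.6 CPM in the 34 (7.66-fold, 3.78 to 18.1; 28.3-fold after thinning), close to the 69.9 CPM of the comparison cells. Maf was 4.65-fold (2.56 to 9.24) and Icos 3.27-fold higher in the 72 (2.20 to 5.05). Cxcr6 had 77 UMIs in the 72 and 3 in the 34 (11.8-fold, 3.90 to 58.6). All 41 UMIs of Ccr2 lay in the 72, at 129 CPM, which is at least 6.30-fold higher than the 34 at the limit of 3 counts that a count of 0 allows.

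Of 12 antigen receptor response genes 2 were at least 2-fold lower in the 72, none higher and 10 between, and of 12 antigen-engaged Treg genes 3 were lower, none higher and 9 between. Irf8, a transcription factor induced on lymphocyte activation, stood at 34.6 CPM in the 72 and 260 CPM in the 34 (ratio 0.133, 0.0615 to 0.266; 0.0885 after thinning). Tnfsf8, which encodes CD30 ligand, had a ratio of 0.145 (0.0476 to 0.379) and Cd200, an inhibitory ligand, one of 0.265 (0.142 to 0.480). Tbc1d4 stood at 116 CPM in the 72 and 342 CPM in the 34 (ratio 0.341, 0.217 to 0.532), and Cd83 at 151 CPM in the 72 and 280 CPM in the 34 (ratio 0.539, 0.348 to 0.839). Nr4a1 had a ratio of 0.320 (0.158 to 0.634), with UMIs in 4 of the 72 and 7 of the 34, and one of 0.05255 without the 14 members with tied leading genes. The chaperone gene Hsp90ab1 stood at 850 CPM in the 72 and 1974 CPM in the 34 (ratio 0.430, 0.363 to 0.510). Hsp90ab1 is on the list of genes that also follow tissue dissociation, which summed to 4308 CPM in the 72 and 7131 CPM in the 34. The part of dissociation in the division was not tested.

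Some features differed little between the 72 and the 34. Ikzf2 stood at 1794 CPM in the 72 and 1633 CPM in the 34 (1.10-fold, 0.943 to 1.28), both over 3 times the comparison level, and Tnfrsf18 at 674 CPM in the 72 and 704 CPM in the 34 (0.957, 0.753 to 1.22). Ccr7 stood at 50.3 CPM in the 72 and 61.5 CPM in the 34, both far below the 227 CPM of the comparison cells. Bcl2 was below the 605 CPM of comparison cells in both but differed between them, at 69.2 CPM in the 72 and 232 CPM in the 34 (ratio 0.298, 0.166 to 0.525). The ribosomal share was low in both, with a median of 29.6% in the 72 and 31.6% in the 34.

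**Figure D4:**
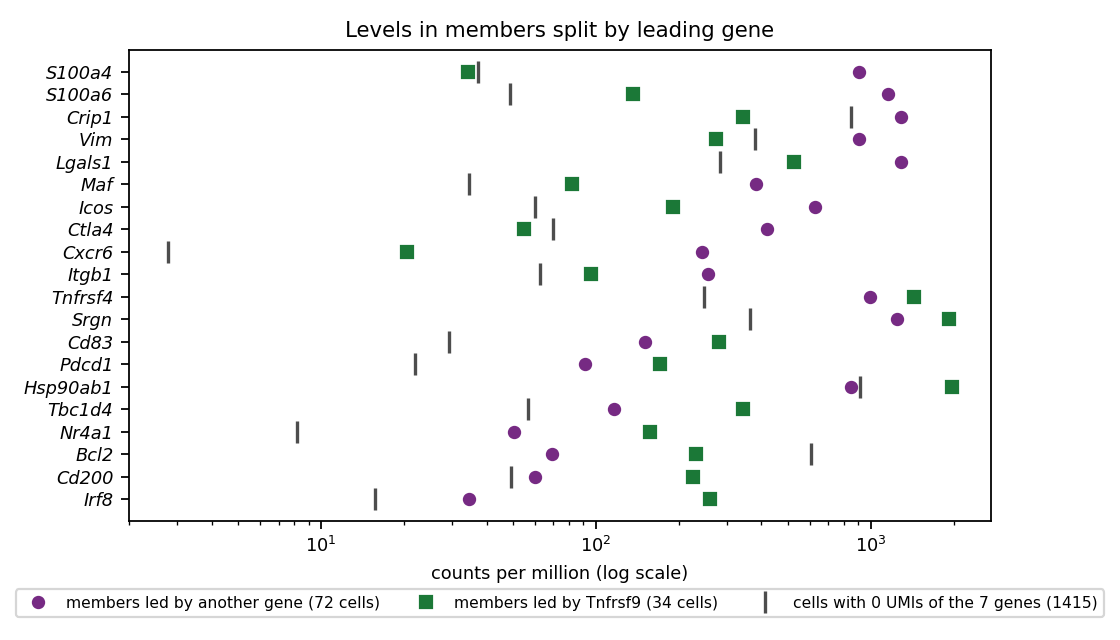
Level in CPM (log axis) of 20 genes in the 72 members led by another gene than Tnfrsf9 (circles), the 34 led by Tnfrsf9 (squares) and the 1415 comparison cells (ticks). S100a4 and Ctla4 of the 34 sit at the comparison level, while Irf8, Cd200 and Tbc1d4 are highest in the 34.

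The tumour cells, with 1 library per tissue, can only be set beside the members, and tissue and library cannot be told apart. They were deeper, with a median of 6274 UMIs per cell against 3672.5 in members, and 701 of 1475 tumour cells had been left out as cycling. After thinning every cell to 1811 UMIs, at least 2 UMIs of the 7 genes were found in 7.08% of the lymph node set (6.02 to 8.25), or 150 cells, and in 87.9% of tumour cells (85.3 to 90.1). Of the lymph node cells passing this limit 95 were members. Unthinned, 680 of 774 tumour cells reached the lowest score of a member, and 10 had 0 UMIs of the 7 genes.

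The selection genes chose the members and not the tumour cells, so their levels in the 2 groups are a description. After thinning, Itgae had a UMI in 4.67% of the whole filtered lymph node set and 2.84% of tumour cells. The shares were 3.59% and 59.3% for Ccl5, 0.472% and 44.2% for Gzmb, and 1.13% and 6.59% for Prdm1. Itgae stood at 252 CPM in members and 21.8 CPM in tumour cells. Gzmb stood at 60.3 CPM in members and 1325 CPM in tumour cells, and Ccl5 at 814 CPM in members and 2931 CPM in tumour cells. Prdm1 stood at 34.5 CPM in members and 36.6 CPM in tumour cells, and at 9.98 CPM in the 598 lymph node cells outside the top 5%.

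Of the 4251 genes, 340 were at least 2-fold higher in members than in tumour cells (8.00%) and 180 at least 2-fold lower (4.23%), with a median log2 ratio of 0.10. Effector Treg genes were on balance at tumour level, with a list median of -0.01 and 1 of 12 higher and 2 lower. Icos stood at 489 CPM in members and 541 CPM in tumour cells (0.904-fold, 0.787 to 1.04), and Maf at 286 CPM in members and 283 CPM in tumour cells (1.01-fold, 0.841 to 1.21). Resting T cell genes were mostly higher in members than in tumour cells, 17 of 22 being past 2-fold with a median of 2.05. Bcl2 stood at 121 CPM in members and 25.03 CPM in tumour cells (4.82-fold, 3.47 to 6.62), and Id3 at 239 CPM in members and 10.3 CPM in tumour cells (23.3-fold, 16.8 to 32.7).

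Antigen-engaged Treg genes were also higher in members than in tumour cells, 6 of 12 being past 2-fold and none lower. Tbc1d4 stood at 187 CPM in members and 5.94 CPM in tumour cells (31.5-fold, 20.9 to 48.6), and Cd83 at 192 CPM in members and 25.4 CPM in tumour cells (7.55-fold, 5.72 to 9.91). Lower in members were 11 of 12 glycolysis genes (median -1.89), 12 of 19 interferon-stimulated genes (median -1.69) and 7 of 17 genes of the S100 list (median -0.80). Tpi1, a glycolytic enzyme, stood at 79.7 CPM in members and 769 CPM in tumour cells (0.104-fold, 0.0729 to 0.143), and S100a4 at 629 CPM in members and 1453 CPM in tumour cells (0.433-fold, 0.384 to 0.487). Ctla4 was at 304 CPM in members and 801 CPM in tumour cells (0.379-fold, 0.318 to 0.448).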

How the data were processed

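The deposited matrices hold unnormalized UMI counts of 27998 genes in every barcode. Per the submitters' processing notes Cell Ranger and the mm10 build were used; its version was not given in the sources used here. Barcodes needed at least 1811 UMIs in lymph node or 3834 in tumour (10% of the 99th percentile of the 3000 largest), 200 genes, at most 10% mitochondrial UMIs, and under 2 UMIs each of the B cell and the cycling genes. Doublets were kept and no caller was run. The members and the gene lists were chosen with earlier results of these data known. Counts were summed per group, and ratios carry exact conditional-binomial 95% intervals, single sums exact Poisson and shares Clopper-Pearson intervals. Cells are not replicates, so no test was made. Ratios of 2 or more, or 0.5 or less, are called higher or lower.

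Genes named are the 7 selection genes, 16 fixed ones, the 15 ranked furthest each way by interval bound (leaving out ribosomal protein, mitochondrial, haemoglobin, clone-named and antigen receptor genes), and up to 4 per list. Genes outside this rule are said to be, or were drawn after their values were seen. Coordinates come from GENCODE M21 (GRCm38). The interval, the ratio and the 2-fold call were tested on simulated data. Alternative scalings used edgeR 4.0.16 (TMM) and DESeq2 1.42.0 (median of ratios) on the summed counts, under R 4.3.3, with Python 3.11.15 for the rest. A few genes that this rule covers are not reported here.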

Additional observations from a re-analysis of the deposited data

How the results depend on the processing

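Depth limits most values: 1 library per tissue, 106 cells and 464161 UMIs, so a gene at 200 UMIs over the set leaves few counts in the members. The scaling limits any count by direction. No paired analysis was possible because each tissue has 1 library.

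Beside 324 higher and 77 lower genes, TMM scaling gave 122 and 231, median-of-ratios scaling 125 and 224, and totals without ribosomal protein genes 157 and 157. The Treg identity median of 0.83 became 0.40, 0.41 and 0.53 under these 3. Taking the top 2.5% as members gave 171 lower, the top 10% gave 203 higher, and all other cells of the set as reference gave 199 higher. Cells matched on total UMIs gave 559 higher and an effector Treg median of 3.04 beside 2.60. Thinning gave 182 lower, and leaving out members led by Tnfrsf9 gave 120 lower. Counting genes with at least 50 UMIs gave 1008 higher and 358 lower, and with at least 1000 UMIs 38 and 14. Thinning also moved the log2 ratio of Tnfrsf9 ranked by the 6 other genes to 1.87 beside 1.54, the genes lower than in tumour to 325 beside 180, and those lower in members led by another gene than Tnfrsf9 to 688 beside 382, with fewer UMIs per gene. The alternatives on ribosomal totals, on Tnfrsf9-led members, on the member with most UMIs of the 7 genes and on the split by leading gene were chosen after seeing the data. For the other moves the cause was not tested. Of 614 values of 44 named genes under 14 settings, 454 stayed within the counting interval of the reported ratio and 160 left it. The sign changed for Il2ra under 7 settings and for Id3 under 1, neither past 2-fold, and for none of the 44 genes past 2-fold.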
